A study of Mus musculus with 3 samples.

Results

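Imprinted genes are expressed mainly from the copy inherited from a given parent, and 42 of them were examined here among the 49993 genes of the RefSeq annotation of mouse build GRCm38.p6. The members were given as a list of well-known imprinted genes. Every region of the authors' 3 tables that lay within 5 kb of a member's annotated span was taken, whatever its direction. This gave 349 of 251946 regions for preosteoclasts against macrophages, 82 of 69337 for mature osteoclasts against macrophages, and 323 of 226632 for mature osteoclasts against preosteoclasts. They make up 602 distinct regions, since a region can stand in more than 1 table.

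The study measured methylation of CG cytosines by whole-genome bisulfite sequencing, in which unmethylated cytosines are converted and methylated ones are read unchanged. All cells came from the bone marrow of C57BL/6 mice at 11 weeks of age: the cells left floating after 24 h of culture were grown for 72 h in M-CSF at 50 ng/mL, a growth factor of the macrophage lineage. They are called bone marrow macrophages (BMM). With M-CSF at 30 ng/mL and RANKL at 100 ng/mL, the cytokine that drives osteoclast formation, BMM gave preosteoclasts (pOC) after 24 h and mature osteoclasts (mOC, the bone-resorbing cells) after at least 72 h. No expression was measured, so the stage names could not be checked against marker genes, and the labels do not give the number of mice behind a library.

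Imprinting rests on methylation that is laid down on a single parental copy in egg or sperm and kept in the body's cells. Such a germline mark often sits at or near the start of a gene or of a non-coding RNA that controls its neighbours. At the mark itself, methylation summed over both copies is intermediate. Where the marks lie was not looked up here, so a region near a start need not cover one. Most germline marks come from the egg, as at Mest, Airn, Kcnq1ot1, Snrpn, Peg3 and Plagl1, while H19, Rasgrf1 and the Dlk1-Meg3 cluster carry marks from sperm.

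A single library was made per stage, and the differences below carry no check against replicates. Each listed region held at least 4 cytosines, at least 16 reads in both libraries and a difference of at least 20 percentage points. A region that kept its level is therefore not listed, and a gene without a region is not shown to be unchanged. Level here means methylated reads over all reads, summed over the cytosines of a region. Median depth over the member regions was 37 reads in pOC and 35 in BMM in the table that compares them. Intervals are 95% intervals for counting error only, and they are too narrow because a read that covers several cytosines enters several times.

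The sequence at 4 starts beside regions described below is shown, as the 250 bases before the annotated start (RefSeq, GRCm38.p6, written in the direction of transcription, CG pairs in capitals). Mest, an enzyme gene expressed from the paternal copy, has starts at more than 1 place, of which the first lies in chr6:30733256-30733505 and the next in chr6:30737800-30738049 (both + strand). The window of Airn, the long RNA that silences Igf2r on the paternal copy, is chr17:12741061-12741310 (+ strand). The window of Zim1, a zinc finger gene beside Peg3, is chr7:6696433-6696682 (- strand).
Mest first start: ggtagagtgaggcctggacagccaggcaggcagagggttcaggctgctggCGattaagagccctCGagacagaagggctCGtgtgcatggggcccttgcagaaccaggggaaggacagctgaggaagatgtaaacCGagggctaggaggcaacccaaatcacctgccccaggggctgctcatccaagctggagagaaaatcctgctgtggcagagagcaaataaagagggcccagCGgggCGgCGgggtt
Mest next start: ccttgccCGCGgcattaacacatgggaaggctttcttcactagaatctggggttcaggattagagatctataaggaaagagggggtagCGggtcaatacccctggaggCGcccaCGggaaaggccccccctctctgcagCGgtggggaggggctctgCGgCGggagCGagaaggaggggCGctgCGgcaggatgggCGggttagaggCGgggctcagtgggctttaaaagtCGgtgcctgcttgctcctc
Airn: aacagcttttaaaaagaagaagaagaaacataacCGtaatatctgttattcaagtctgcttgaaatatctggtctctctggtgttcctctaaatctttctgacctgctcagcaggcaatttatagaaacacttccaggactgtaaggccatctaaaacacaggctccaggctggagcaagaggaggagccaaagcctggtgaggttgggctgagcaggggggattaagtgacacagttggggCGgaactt
Zim1: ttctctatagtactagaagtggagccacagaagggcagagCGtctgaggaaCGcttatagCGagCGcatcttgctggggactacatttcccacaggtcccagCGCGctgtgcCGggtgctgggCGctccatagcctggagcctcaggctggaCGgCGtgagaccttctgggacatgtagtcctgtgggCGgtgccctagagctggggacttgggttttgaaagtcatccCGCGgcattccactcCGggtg

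These windows differ in how many CG pairs they hold. The first Mest window held 7 and the next 14, Airn held 2 and Zim1 14, against a median of 6 over 32851 windows of all genes with an annotated start. Over the 46 windows of the 32 members with an annotated start, with chromosome 18 left out, the median was 10.5. The other 10 members had no window. TGCCGC, the motif read by the imprint-keeping protein ZFP57, was searched on both strands. It occurred in 8 of the 46 windows (17.4%), against 8.68% of all windows. The 46 include 2 Mest windows 3 bp apart that hold the same matches, and with overlapping windows of a gene counted once it occurred in 7 of 44 (15.9%). The next Mest window held 2 matches and the Zim1 window 1, and the windows of the first Mest start and of Airn held none. A match is only a match of letters. The motif itself holds a CG pair, and the shares were not matched for the number of CG pairs in a window. Among the 46 windows, those of Airn and of the first Mest start were the 2 that a listed region overlapped.

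In the comparison of pOC with BMM, which asks how methylation stood after 24 h of RANKL, regions at imprinted genes were mostly lower in pOC. Of 349 regions, 330 were lower and 19 higher in pOC (5.44% higher, interval 3.31% to 8.37%). Over all regions of that comparison 7.06% were higher and 92.9% lower in pOC. At least 1 region lay near 38 of the 42 genes, where 82.1% of all protein-coding and lncRNA genes had one. Members are longer than most genes, with a median span of 38754 bp against 12757.5 bp. Of members spanning 30 to 150 kb, 19 of 19 had a region, beside 96.3% of all genes of that span. In 25 members all regions were lower, in 13 they went both ways, and no member had only higher regions. Directions per gene were not counted over all genes. Imprinted genes followed the direction of the whole table, and nothing in the counts of regions is particular to them.

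The medians also lay near those of the whole table. The median level was 50.0% in pOC and 82.9% in BMM over the member regions, against 48.6% in pOC and 80.0% in BMM over all regions. The median size of the difference was 29.9 points, against 29.3 points over all regions. Regions numbered 10.6 per 100 kb of member windows against 12.4 per 100 kb of all gene windows.

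**Figure D1:**
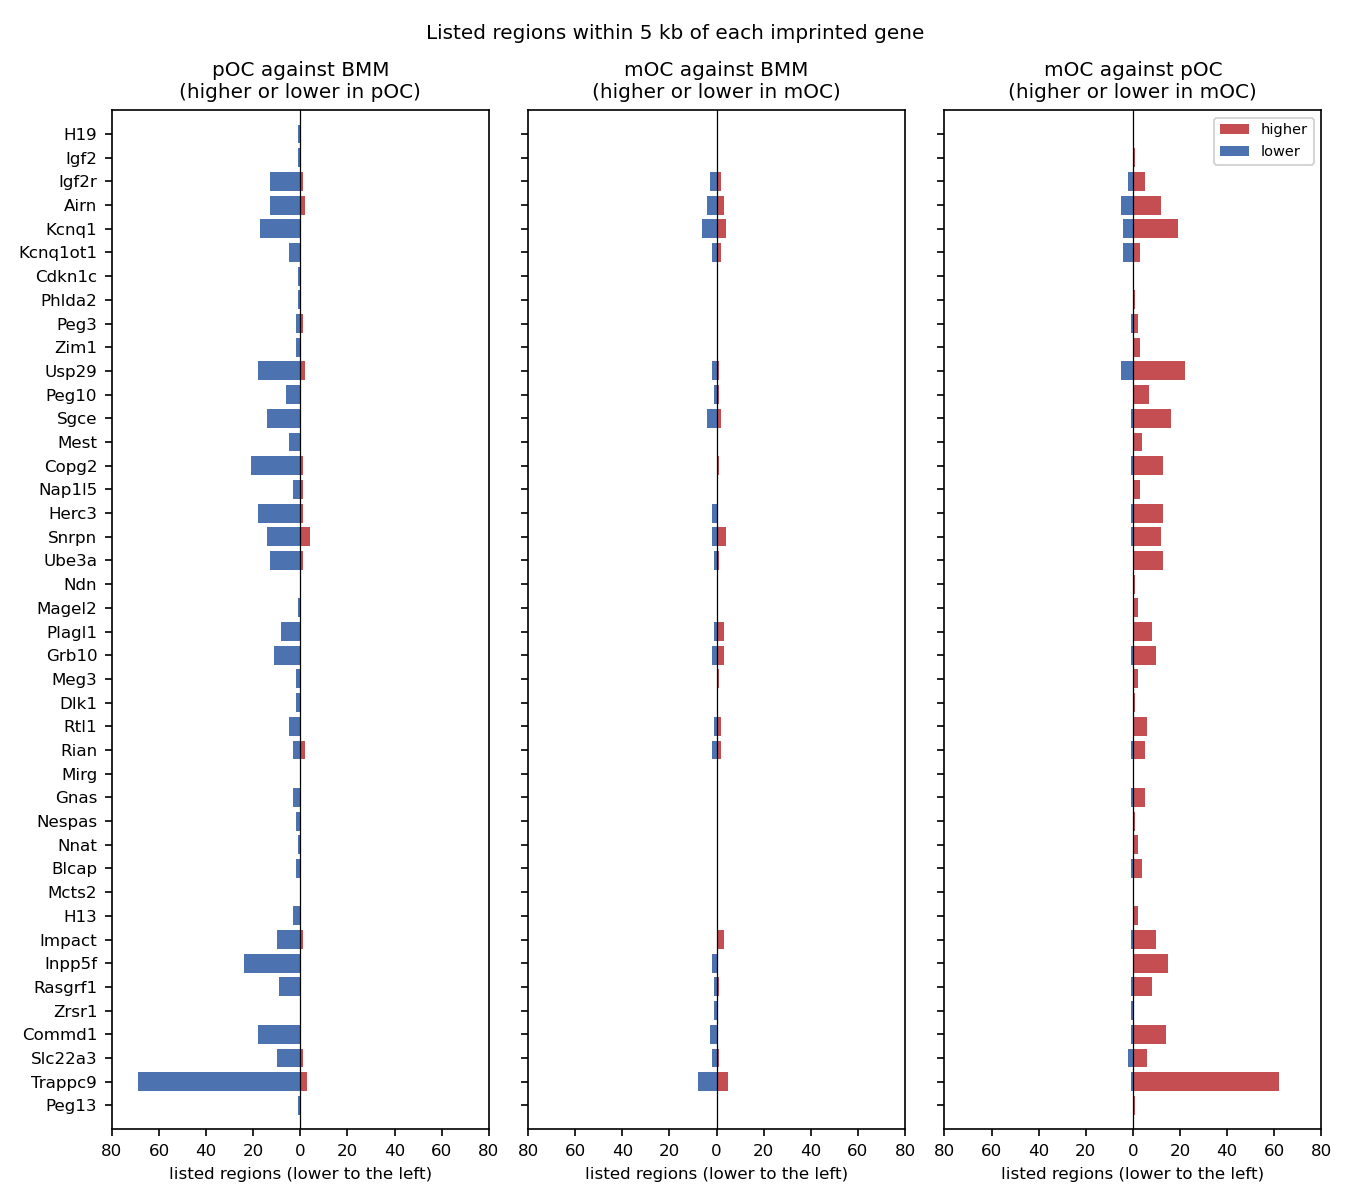
Number of listed regions within 5 kb of each of the 42 imprinted genes in the 3 comparisons; bars to the right count regions higher in the stage named first in each panel and bars to the left regions lower in it. Nearly all genes point left in pOC against BMM and right in mOC against pOC, Trappc9 has the most regions with 72, 13 and 63, and Mirg and Mcts2 have none.

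Fisher's exact test (two-sided, Benjamini-Hochberg over the whole table) set the reads of the 2 libraries against each other, not the 2 conditions. It passed at an adjusted p of 0.05 in 315 of the 349 member regions, where 91.3% of all regions passed. The table holds only regions already chosen for a large difference, so these adjusted p-values are too small. The reads of a region were then divided by its number of CG pairs, so that a read is counted about once. No member region passed after adjustment, and 9 of all 251946 regions did. At an unadjusted p of 0.05, 53 of 349 (15.2%) then did, beside 16.5% of all regions.

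The growth regulators had mostly lower regions, as did the whole table. This group holds Igf2, a fetal growth factor, Igf2r, the receptor that clears it, the growth inhibitors Grb10, Cdkn1c and Phlda2, the Notch-related ligand Dlk1 and the zinc finger factor Plagl1. Of its 38 regions, 37 (97.4%) were lower in pOC, beside 92.9% of all regions. The single region near Igf2 (chr7:142648401-142648600) stood at 80.0% in BMM, 51.7% in pOC and 80.0% in mOC, from 25, 29 and 25 reads. The region near Cdkn1c was at 17.2% in pOC and 54.2% in BMM. At Dlk1 a region 14978 bp past the start (chr12:109467801-109468000) was at 77.3% in BMM, 32.9% in pOC and 57.6% in mOC. The fall of 44.4 points in pOC against BMM (interval 26.1 to 58.2) passed the Fisher test at an adjusted p of 6.14e-05.

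Phlda2 and Plagl1 had listed regions close to their starts. Phlda2, a gene of placental growth, had a region of 400 bp with 14 cytosines 1477 bp upstream (chr7:143504001-143504400). Its level was 78.6% in BMM, 39.8% in pOC and 81.8% in mOC, from 70, 98 and 66 reads. The pOC interval (30.0% to 50.2%) overlapped neither the BMM interval (67.1% to 87.5%) nor the mOC interval (70.4% to 90.2%). Phlda2's region is listed in both comparisons with pOC, which requires at least 20 points in each, so this gap is largely set by the listing. With reads counted once, its unadjusted Fisher p was 0.104 in pOC against BMM and 0.197 in mOC against pOC. Plagl1 had a region 632 bp upstream (chr10:13090001-13090200) at 80.8% in BMM, 45.7% in pOC and 66.7% in mOC. There mOC lay between the other libraries, and its interval of 53.7% to 78.0% overlapped both.

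Regions near the non-coding RNAs were also mostly lower. Of the 31 regions near H19, Airn, Kcnq1ot1, Meg3, Rian, Nespas and Peg13, 27 (87.1%) were lower and 4 higher in pOC. Over all regions 92.9% were lower. Mirg, the eighth RNA of that list, had no region in any table. Airn held 13 lower and 2 higher regions. Its region 111 bp upstream of the start (chr17:12741001-12741200), which overlaps the Airn window printed above, was the one nearest to an annotated start among the regions higher in pOC. Its level was 21.1% in BMM, 75% in pOC and 22.2% in mOC. It rests on 19, 16 and 18 reads over 4 cytosines, so the intervals are wide, at 6.05% to 45.6% in BMM, 47.6% to 92.7% in pOC and 6.41% to 47.6% in mOC. The difference of 53.9 points in pOC against BMM (interval 20.8 to 73.4) had an adjusted p of 0.00642, and with reads counted once its unadjusted p was 0.0536.

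Most Airn regions were lower in pOC. At 1511 bp upstream (chr17:12739601-12739800) the level was 51.9% in pOC and 100% in BMM, from 27 reads each. Deep in the gene, 64690 bp past the start, a region was at 60% in BMM, 19.1% in pOC and 63.9% in mOC. The other higher Airn region, 84890 bp past the start, was at 64% in BMM, 89.7% in pOC and 65.2% in mOC. Kcnq1ot1, the RNA that silences the Kcnq1 cluster, had 5 regions, all lower in pOC. H19, the RNA beside Igf2, had 1 region 4330 bp outside the gene, at 64.0% in pOC and 88.5% in BMM, with an adjusted p of 0.055. It did not pass the test.

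The greatest number of cytosines in a member region was 26, in a region of Impact at 51.7% in pOC and 93.7% in BMM and in a region of the Meg3 cluster. The Meg3 region of 400 bp (chr12:109560801-109561200) lies within 5 kb of both Meg3, a maternally expressed RNA, and Rtl1, a gene derived from a retrotransposon. Its level was 69.3% in BMM, 44.4% in pOC and 69.5% in mOC, from 153, 180 and 197 reads. At this depth the intervals were 61.3% to 76.5% in BMM, 37.1% to 52.0% in pOC and 62.6% to 75.9% in mOC. The BMM and mOC levels could not be told apart. The pOC level lay below both, by at least 20 points as listing in both comparisons with pOC requires. All 11 regions of the retrotransposon-derived genes Rtl1 and Peg10 were lower in pOC, beside 92.9% of all regions.

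Mest had 5 regions in pOC against BMM, all lower in pOC. The region over the first start (chr6:30733401-30733600), which overlaps the first window printed above, was at 58.3% in pOC (44.9% to 70.9%, 60 reads) and 79.2% in BMM (65% to 89.5%, 48 reads). At 695 bp past that start (chr6:30734201-30734400) the level was 41.9% in BMM, 15.8% in pOC and 40.5% in mOC, from 43, 38 and 37 reads. At 1250 bp before the next start (chr6:30736601-30736800) it was 51.2% in BMM, 22.9% in pOC and 51.9% in mOC, from 41, 35 and 54 reads. Both regions stood near the middle in BMM and mOC and below it in pOC. The falls in pOC against BMM were 26.1 and 28.4 points, with intervals of 6.18 to 43.1 and 6.49 to 46.5. With reads counted once, their unadjusted p-values were 0.361 and 0.35.

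**Figure D2:**
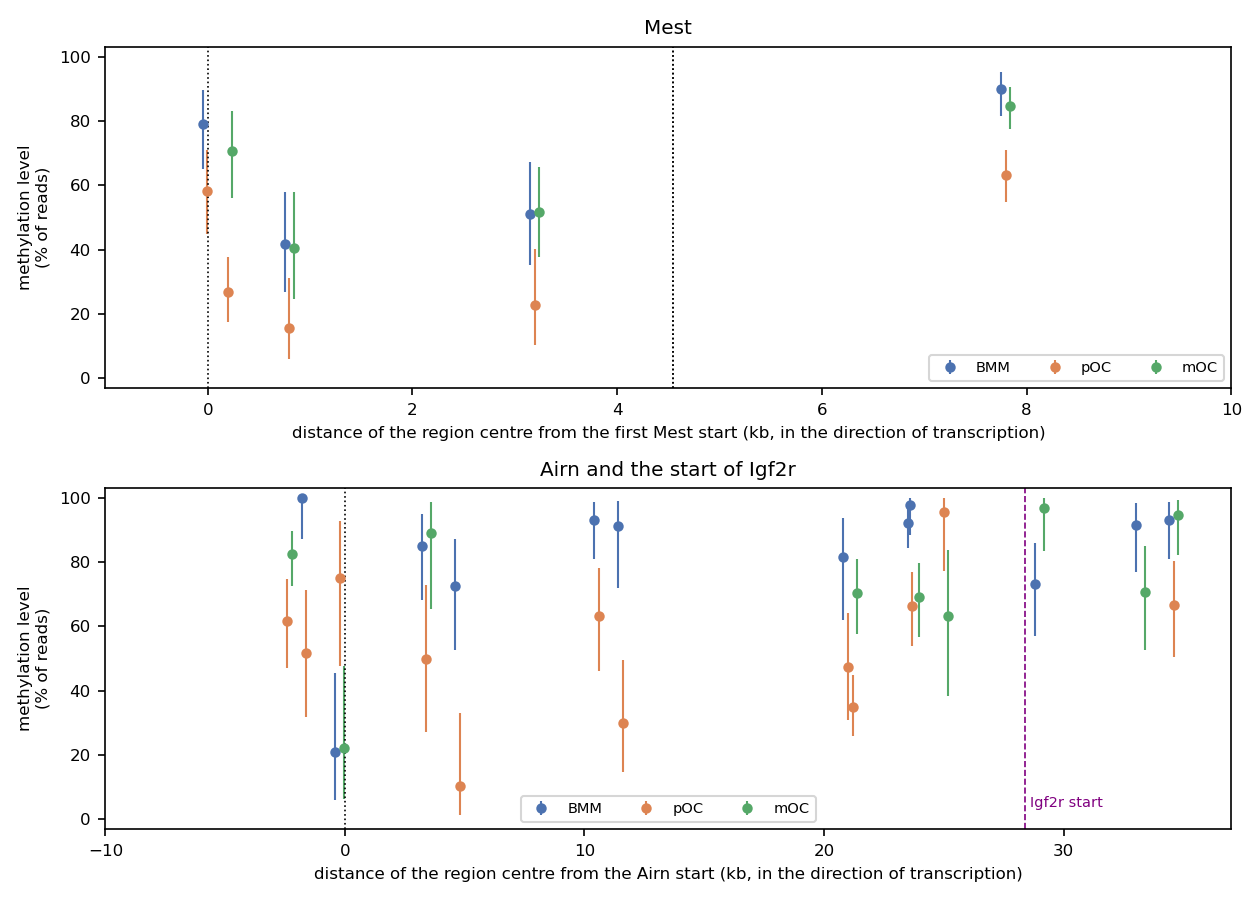
Level in percent of reads against distance in kb from the first Mest start (top) and the Airn start (bottom), with 95% counting intervals, 1 library per stage; dotted lines mark annotated starts of the gene and the dashed line the start of Igf2r. At Mest each pOC point lies below the points of the other stages at the same region, and at the Airn region 111 bp upstream pOC, at 75%, lies above both BMM, at 21.1%, and mOC, at 22.2%.

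Further members with a germline mark also had regions near starts or gene ends. Nap1l5, a retrogene inside Herc3, had a region 926 bp past its start at 95.5% in BMM, 63.8% in pOC and 90.0% in mOC. Gnas, which encodes the stimulatory G protein subunit, had one 1796 bp past a start at 84.9% in BMM, 53.5% in pOC and 89.2% in mOC. At Impact a region 1711 bp inside a gene end had its highest level in pOC, at 4.17% in BMM, 26.1% in pOC and 5.56% in mOC, with an adjusted p of 0.052 in pOC against BMM. At Peg10 a region 484 bp outside the gene (chr6:4761001-4761200) was at 96.2% in BMM, 50.8% in pOC and 57.7% in mOC. There mOC stayed 38.5 points below BMM (interval 15.9 to 57.5, adjusted p 0.0123). Over the 16 members with a maternal mark, 9 of 116 regions (7.76%) were higher in pOC, beside 7.06% of all regions. Over the 3 with a paternal mark none of 12 was. Whether any of these regions covers a mark was not examined.

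Host and neighbouring genes gave 178 of the 349 regions. Trappc9, a trafficking gene that surrounds Peg13, alone had 72, among them one at 45.8% of 48 reads in pOC and 96.4% of 55 reads in BMM. The group of Kcnq1, Copg2, Sgce, Herc3, Commd1, H13, Blcap, Slc22a3 and Trappc9 had 6 of 178 regions (3.37%) higher in pOC. Over all regions 7.06% were higher. At Herc3 a region 701 bp past the start was at 90.3% in BMM, 50.0% in pOC and 77.1% in mOC. At Copg2 a region 1407 bp upstream was at 90.0%, 42.9% and 84.2% in BMM, pOC and mOC. A region of Commd1, the host of Zrsr1, was methylated in 56.6% of 76 reads in pOC and in 100% of 71 reads in BMM. In Kcnq1, a potassium channel gene that contains Kcnq1ot1, a region was at 79.7% in BMM, 39.1% in pOC and 81.5% in mOC. Inpp5f, a phosphatase gene with an imprinted internal transcript, had 24 regions, all lower in pOC, with one at 45% in pOC and 90.9% in BMM.

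**Figure D3:**
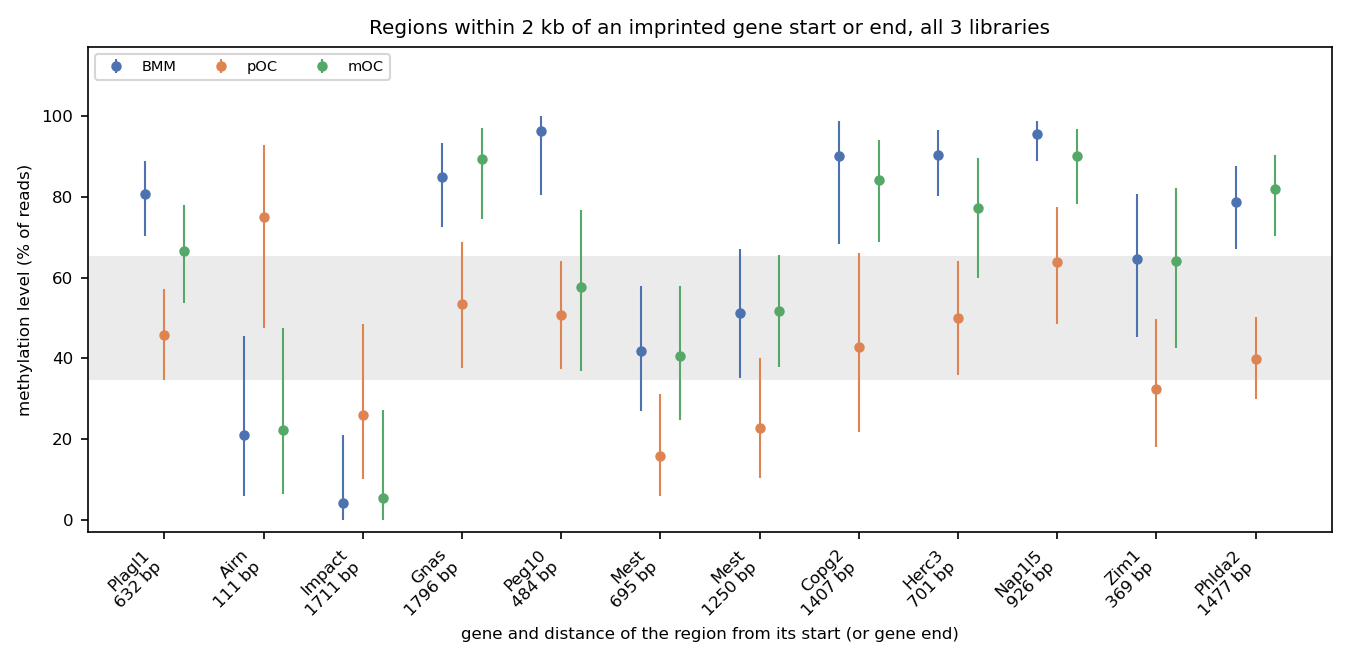
Level in percent of reads, with 95% counting intervals, in BMM, pOC and mOC (1 library each) for the 12 regions within 2 kb of a member's start or, where the strand is not annotated, of either gene end, and with all 3 levels listed; grey marks 35 to 65%. In 10 regions pOC is lowest, and at Airn (75%) and Impact (26.1%) it is highest.

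The genes known from brain and nerve included the region with the greatest fall among those with at least 30 reads in both libraries. It lay 33651 bp past the start of Ube3a, a ubiquitin ligase expressed from the maternal copy in neurons (chr7:59262401-59262600). Its level was 86.8% in BMM, 35.4% in pOC and 59.6% in mOC, from 68, 79 and 57 reads. It was the 1 member region listed in all 3 tables, so the 3 stages lay at least 20 points apart from each other. The fall in pOC against BMM was 51.3 points (interval 36.4 to 62.7, adjusted p 2.31e-08). Snrpn, a splicing gene, had 14 lower and 4 higher regions, and Ndn had none in this table. Usp29, a gene next to Peg3, had 18 lower and 2 higher, with a region (chr7:6743401-6743600) at 97.5% in BMM, 48.6% in pOC and 96.2% in mOC. Peg3 itself, a zinc finger gene, had 2 lower regions and 1 higher, which was at 46.2% in pOC and 21.1% in BMM. Its lower region with the most reads was at 25.9% in pOC and 68.8% in BMM.

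CG-dense regions, with at least 10 cytosines per 200 bp, were all lower in pOC at imprinted genes. None of 35 was higher, beside 3.36% of the 28567 dense regions of the table. Their levels ran from 12.2% to 73.3% in pOC and from 40% to 100% in BMM. Of the 22 member regions within 2 kb of a start or gene end, 2 were higher in pOC, those at Airn and Impact. Impact, a regulator of translation, also had a lower region over a gene end, at 73.8% in pOC and 100% in BMM, and one deep in the gene at 40% in pOC and 83.7% in BMM. The Rtl1 region 301 bp inside the gene end was at 44.4% in pOC and 75% in BMM with an adjusted p of 0.0702, and the Peg10 region 917 bp inside was at 45.1% in pOC and 79.4% in BMM with an adjusted p of 0.00554. Over all regions within 2 kb of any start, 5.53% were higher.

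Methylation near the middle in BMM, from 35% to 65%, was looked at because a mark on a single parental copy gives such a level. Its share at imprinted genes was close to that over all regions. In pOC against BMM, 70 of 349 member regions (20.1%) had it, beside 22.2% of all regions. In mOC against BMM, 26 of 82 (31.7%) had it, beside 30.6%. Of the 70, 6 (8.57%) were higher in pOC, beside 8.98% of all regions with such a BMM level. Of the 26, 15 (57.7%) were higher in mOC, beside 52.6%. These regions were chosen by their BMM level, and listing requires a difference of at least 20 points, so their distance from BMM is a description. The 70 had a median of 23.1% in pOC and 51.4% in BMM. Just below the limit, the 8 regions at 30% to under 35% in BMM had a median of 8.05% in pOC and 31.6% in BMM. Just inside, the 9 regions at 35% to under 40% had 13.8% in pOC and 36% in BMM. At the upper limit, the 15 regions over 60% and up to 65% had 30.4% in pOC and 61.7% in BMM, and the 15 over 65% and up to 70% had 37.5% in pOC and 67.6% in BMM.

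**Figure D4:**
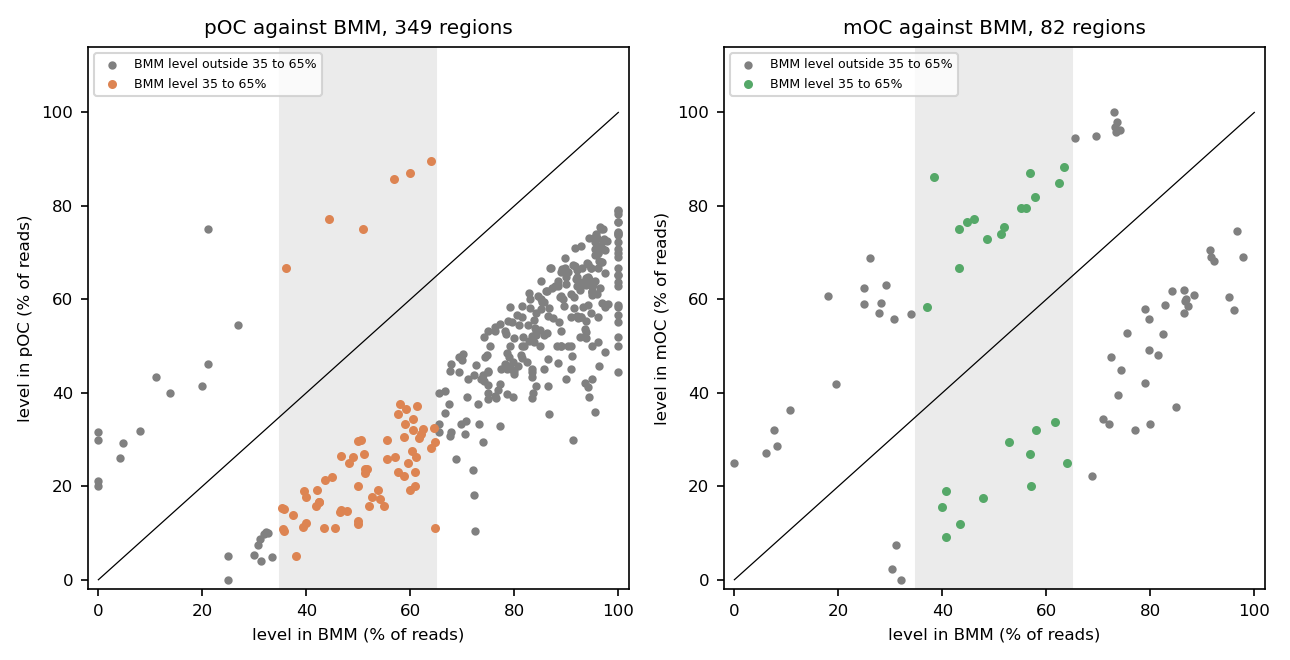
Level in pOC (left) and mOC (right) against level in BMM, in percent of reads, for each member region listed in that comparison; the line marks equal levels, no region lies within 20 points of it by the listing rule, and grey with coloured points marks a BMM level of 35 to 65%. In pOC 330 of 349 regions lie below the line, and in mOC 45 of 82 do.

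Across the BMM tables there were 90 distinct member regions with a BMM level of 35% to 65%, near 26 of the 42 genes. The share of all genes with such a region was not counted. Members are also longer, with a median span of 38754 bp against 12757.5 bp for all protein-coding and lncRNA genes. The pOC level was listed for 77 of the 90 regions and was below 35% in 60, within 35% to 65% in 11 and above 65% in 6. The mOC level was listed for 53, with 11 below, 26 within and 16 above. Over all regions with such a BMM level, pOC was below 35% in 74.2% of 62531 and mOC within 35% to 65% in 40.3% of 38514, where the member shares were 77.9% and 49.1%. For 40 member regions all 3 levels were known, which requires a difference of at least 20 points in 2 of the comparisons, so a dip and return is largely set by the listing. In pOC 29 of these 40 (72.5%) lay below 35%, beside 66.7% of 27452 regions over the whole tables. In mOC 26 (65%) lay within 35% to 65%, 6 below it and 8 above, and of all such regions 52.8% lay within. Both Mest regions were among those back within these limits in mOC.

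**Figure D5:**
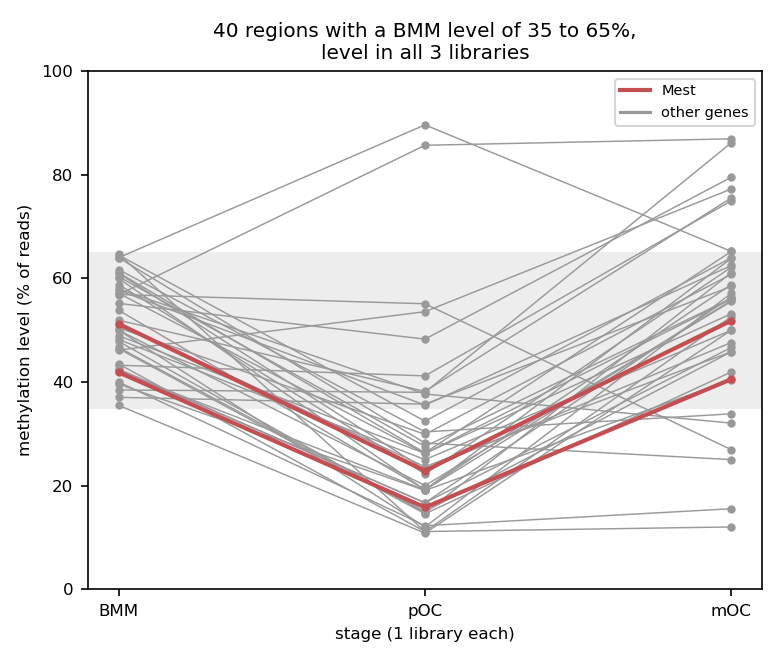
Level in percent of reads in BMM, pOC and mOC for the 40 member regions with a BMM level of 35 to 65% and all 3 levels known, 1 line per region, Mest in red and 1 library per stage. Most lines dip at pOC, where 29 regions are below 35%, and 26 are within 35 to 65% in mOC.

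Of the 19 members with a known germline mark, 11 had such a region somewhere within 5 kb of their span, beside 26 of all 42 members. Members with a mark thus had one no more often than the members as a whole. Within 2 kb of a start or gene end there were 4 of the 90 (4.44%). Of all distinct regions with such a BMM level, 4.82% lay within 2 kb of any annotated start. Gene ends were used only for members, so these shares are not quite alike. Of the 4, 2 were at Mest, 1 at Peg10 and 1 at Zim1. The Peg10 region (chr6:4759801-4760000) lay 517 bp inside a gene end that is not annotated as a start. Its level was 17.8% in pOC and 40% in BMM, with an adjusted p of 0.0539. It did not pass the test. The Zim1 region, 369 bp before the start whose window is printed above (chr7:6696801-6697000), was at 64.5% in BMM, 32.4% in pOC and 64.0% in mOC, from 31, 37 and 25 reads.

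In mOC against BMM, the net comparison over the whole culture, imprinted genes had few regions and no common direction. Of 82 regions, 37 were higher and 45 lower in mOC (45.1% higher, interval 34.1% to 56.5%). Over all regions 41.1% were higher and 58.9% lower in mOC. A region lay near 23 of the 42 genes, beside 53.7% of all genes. Of members spanning 30 to 150 kb, 17 of 19 had one, beside 82.9% of all genes of that span. In 16 members the regions went both ways, in 4 they were only lower and in 3 only higher. Directions per gene were not counted over all genes. The Fisher test passed in 76 of 82 regions, beside 93.8% of all. With reads counted once, none passed after adjustment, beside 1 of all 69337 regions. At an unadjusted p of 0.05, 8 (9.76%) did, beside 8.52% of all.

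The largest difference with at least 30 reads in both libraries was at Sgce, the sarcoglycan gene next to Peg10. The region (chr6:4696601-4696800) was at 77.0% in BMM, 68.8% in pOC and 32.1% in mOC, from 61, 77 and 53 reads. It fell late, since mOC lay below both other stages while the intervals of pOC and BMM overlapped. Slc22a3, a transporter gene of the Igf2r cluster, had a region at 72.1% in BMM, 23.5% in pOC and 33.3% in mOC, where the lower level was already present in pOC. Snrpn had a region 54777 bp past a start at 2.27% in mOC and 30.3% in BMM. Further lower regions among the 10 genes with the greatest differences were at Trappc9 (34.4% in mOC, 71.0% in BMM), Kcnq1 (60.4% in mOC, 95.1% in BMM), Usp29 (49.1% in mOC, 79.7% in BMM), Herc3 (52.6% in mOC, 82.4% in BMM) and Igf2r (69.1% in mOC, 97.8% in BMM). All of these passed the Fisher test, with adjusted p-values of 0.00192 at Igf2r to 0.0268 at Herc3.

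Regions higher in mOC lay near 19 of the 23 genes, and lower ones near 20, counts that were not made over all genes. The greatest gain was at Impact, where all 3 regions were higher. Its region (chr18:12974601-12974800) was at 38.5% in BMM, 38% in pOC and 86.2% in mOC, from 39, 50 and 29 reads (difference 47.7 points in mOC against BMM, interval 24.8 to 63.7, adjusted p 0.00207). Among regions with at least 30 reads in both libraries, the greatest gains were at Airn and Plagl1. At Airn, 107690 bp past the start, a region with 10 cytosines was at 76.5% in mOC and 44.7% in BMM, from 68 and 85 reads (difference 31.8 points, interval 16.3 to 45, adjusted p 0.0021). Plagl1 had a region 7769 bp past a start at 59.2% in mOC and 28.1% in BMM. At 495 bp before the start of Igf2r (chr17:12770201-12770400) the level was 96.8% in mOC and 73.2% in BMM. That region and the one outside Peg10 were the 2 listed within 2 kb of a start or gene end in this comparison.

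In mOC against pOC, the later part of the culture, regions at imprinted genes were mostly higher in mOC. Of 323 regions, 294 were higher and 29 lower (91.0% higher, interval 87.4% to 93.9%), beside 89.1% of all regions. A region lay near 38 genes, beside 81.9% of all genes. Of members spanning 30 to 150 kb, 19 of 19 had one, beside 96.6% of all genes of that span. In 18 members all regions were higher, in 19 they went both ways, and Zrsr1 had only a lower one. Directions per gene were not counted over all genes. The Fisher test passed in 208 regions, beside 64.8% of all. With reads counted once, none passed after adjustment, beside 2 of all 226632 regions. At an unadjusted p of 0.05, 40 (12.4%) did, beside 11.2% of all. This comparison shares the pOC library with that of pOC and BMM, so the same pOC levels enter both.

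Of the dense regions, 33 of 33 were higher in mOC, beside 94.9% of all dense regions. The one with the most reads, 103576 bp from a Snrpn start, was at 76.9% of 247 reads in mOC and 52.1% of 194 reads in pOC. A region with 24 cytosines lay 375 bp before the start of Rasgrf1, a signalling gene with a sperm mark (chr9:89909201-89909400). Its level was 35.6% in mOC (27.0% to 44.9%, 118 reads) and 14.9% in pOC (9.06% to 22.5%, 121 reads). Whether it covers that mark was not examined. Peg10 had a region of 18 cytosines at 82.6% in mOC and 48.6% in pOC. At 95 bp past the first Mest start the level was 70.8% in mOC and 26.8% in pOC, from 48 and 82 reads (difference 44.0 points, interval 26.5 to 57.8, adjusted p 4.96e-05).

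The greatest differences with at least 30 reads in both libraries were all gains in mOC. Usp29 led with the region named above, at 96.2% in mOC and 48.6% in pOC (difference 47.6 points, interval 29.7 to 63.0). Impact followed with 92.5% in mOC and 45.1% in pOC, and Kcnq1 with 61.1% in mOC and 14.7% in pOC. The Airn region 64690 bp past the start and the Phlda2 region upstream of its start, both given above, are also among the 10 genes. Copg2 had a region at 80.9% in mOC and 40.6% in pOC, Inpp5f one at 96.9% in mOC and 56.2% in pOC, Slc22a3 one at 62.5% in mOC and 22.7% in pOC, and Snrpn one at 56.4% in mOC and 16.7% in pOC. Nnat, a neuronal membrane protein gene nested in Blcap, had a region 724 bp past its start at 66.7% in mOC and 39.4% in pOC, with an adjusted p of 0.0483. A region over a gene end of Sgce was at 50.0% in mOC and 25.6% in pOC, with an adjusted p of 0.0784, and did not pass the test.

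Non-coding RNAs had 24 of 34 regions higher in mOC (70.6%), where the growth regulators had 26 of 29 and the host and neighbouring genes 149 of 161. Over all regions 89.1% were higher in mOC. No test of the difference between these lists was made. The lower regions of the RNAs were 5 at Airn, 4 at Kcnq1ot1 and 1 at Rian. The Zrsr1 region (chr11:22977202-22977401), also near its host Commd1, was at 81.5% in BMM, 83.3% in pOC and 48.1% in mOC, from 27, 24 and 27 reads. Zim1 had a region 832 bp past its start at 33.3% in mOC and 3.23% in pOC. Near Magel2, a region 379 bp before the start was at 66.7% in mOC and 42.5% in pOC, with an adjusted p of 0.0918, and it did not pass the test.

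Of the 602 distinct member regions, 151 stood in at least 2 tables with the same coordinates (25.1%), beside 26.3% of all regions. For these all 3 levels were known.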

How the data were processed

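Whole-genome bisulfite sequencing covered 3 mouse libraries, 1 per stage. The authors deposited 3 tables of regions. Per the file headers, each row has a position, the deposited counts of methylated and of all reads per library, levels as a fraction, cytosines and a p-value. The headings name hours, by which libraries were matched to stages. GRCm38 was the build, per the submitters' processing notes, which also list StringTie, HISAT2 and FastQC. The sources used here name neither a bisulfite aligner nor a region caller. Library depth is not analysed here.

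The deposited counts gave each level, with Clopper-Pearson 95% intervals, Newcombe intervals for differences and two-sided Fisher's exact tests with Benjamini-Hochberg adjustment over each table (Python 3.11.15, scipy 1.17.1, pandas 2.3.3, numpy 2.4.6), tested on simulated data. These compare 2 libraries, not conditions. The listed regions passed the authors' p-value limit, which the largest deposited p-value puts at 0.05 except in mOC against pOC, where 45014 regions lay above it. Of the members, 41 matched by symbol and Nespas by an older one. Starts were annotated for 32 of 42. For the other 10 either gene end was used. Regions within 5 kb of 2 members count for each gene but once in totals. Named regions are the 10 members with the greatest difference among regions with at least 30 reads in both libraries, regions within 1 kb of a start, those within 2 kb with a BMM level of 35% to 65%, dense regions, regions in all tables and members with none; a few others illustrate their gene and were chosen after their values were seen. Members and lists were chosen with earlier results of these data known. Coordinates are 1-based.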

Additional observations from a re-analysis of the deposited data

How the results depend on the processing

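Of 54 alternatives tried, 42 kept the result, 12 moved it and none reversed it. With at least 30 reads in both libraries, 2.67% of 187 regions were higher in pOC against BMM and 96.1% of 154 in mOC against pOC. Where the deposited p-value was 0.001 or less, 0% of 53 regions (pOC against BMM), 0% of 1 (mOC against BMM) and 96.9% of 32 (mOC against pOC) were higher, near 24, 1 and 15 members. No region with a BMM level of 35% to 65% was left there, so that setting gave no value. Without members over 100 kb, 15 of 34 had a region in mOC against BMM, beside 53.7% of all genes of any length. After dividing reads by CG pairs, 0 member regions passed the Fisher threshold in each of the 3 comparisons, against 315, 76 and 208. Over all regions 9, 1 and 2 passed it after that division. The lower numbers of members follow from settings that keep fewer regions or, without members over 100 kb, fewer members. The cause of the moved shares was not tested.

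No paired analysis was possible because each stage had 1 library, so no library was left out. Some member regions had only 16 reads, which sets wide intervals.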

Other observations

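Another list of 35 imprinted genes, among them Zdbf2, Sfmbt2, Dio3 and Slc38a4, is given for comparison. A region lay near 29 of them in pOC against BMM, 23 in mOC against BMM and 30 in mOC against pOC. Of all genes, 82.1%, 53.7% and 81.9% had one. Of the regions near this list, 14 of 339 (4.13%) were higher in pOC against BMM, beside 7.06% of all regions. In mOC against BMM 32 of 87 (36.8%) were higher, beside 41.1%. In mOC against pOC 259 of 294 (88.1%) were higher, beside 89.1%. Of 13 factors that write or keep imprints, such as the DNA methyltransferases, 12 had a region in pOC against BMM, beside 82.1% of all genes. There 3 of 136 regions (2.21%) were higher in pOC, beside 7.06% of all regions. In mOC against pOC, 110 of 116 (94.8%) were higher in mOC, beside 89.1% of all regions.

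Regions with a BMM level of 35% to 65% were set against those 5 to 500 kb to either side of the gene, in pOC against BMM. Usp29 had 13 of 20, beside 35.4% of its flanking regions. Rasgrf1 had 6 of 9, beside 27.9%, Sgce 6 of 14, beside 29.6%, and Kcnq1 9 of 17, beside 22.2%. Snrpn had 9 of 18, beside 50.0%. The genes are given because they had the most such regions, and no test was made. Igf2r, Ube3a, Plagl1 and Impact, with 14, 14, 8 and 11 regions, had none, beside 16.5%, 40.6%, 17.1% and 20% of their flanking regions. Other genes with many regions had few such ones. Trappc9 had 5 of 72, beside 15.9%, Inpp5f 1 of 24, beside 14.7%, and Copg2 1 of 22, beside 10.3%. Herc3 had 1 of 19, beside 37.0%, and Commd1 1 of 18, beside 13.4%.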
